A study of Mus musculus with 16 samples.

Results

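The Hoxb cluster is described here through the peaks of 3 histone methylations over the mm9 window chr11:96050001-96240000, which runs from Hoxb13 to Hoxb1, and over 100 kb of flank on each side. All peaks and islands of the 16 deposited lists that touch the window were taken, 134 of 610361 in all, with 65 for H3K4me3, 44 for H3K27me3 and 25 for H3K36me3. A further 34 touched the flank beyond Hoxb13 and 12 the flank beyond Hoxb1, and an island that crosses a border is counted on both sides. The rule that fixes the window uses position alone, and the cluster was picked with earlier results of these data known.

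The lists come from chromatin immunoprecipitation and sequencing (ChIP-seq) of bone marrow hematopoietic stem cells of C57BL/6 mice, sorted as SP-KSL-CD150+, a gate on dye efflux and surface markers that enriches for stem cells able to rebuild blood over the long term. Donor mice were aged 24 months (old) or 4 months (young). H3K4me3 was measured in 2 old and 2 young libraries (replicates 7 and 8), H3K27me3 in 3 old and 3 young (replicates 1 to 3), and H3K36me3 in 3 old and 3 young (replicates 4 to 6). Each sample is labelled as a technical replicate under a biological replicate's number, with no animal named. The p-values therefore reflect variation among these samples alone, and part or all of it may be technical. The comparison asks how the marks of stem cells differ with age. The sorted cell type could not be checked against marker genes, since gene positions on mm9 were not used here.

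Hox genes encode homeodomain transcription factors that give cells their position along the body axis, and they lie in clusters whose order on the chromosome follows the order of their use. Polycomb group complexes place H3K27me3, a mark of repressed chromatin, over silent Hox genes, while Trithorax group complexes of the MLL family place H3K4me3 at their active promoters and H3K36me3 is laid down over transcribed gene bodies. Promoters that carry H3K4me3 and H3K27me3 together are called bivalent. In blood, Hoxb4 is known for expanding stem cells when it is overexpressed, and Hoxb5 is known as a marker of long-term stem cells in mice. Hoxb13, at the posterior end and set apart from the rest, is best known from prostate and hindgut, and Hoxb1, at the anterior end, from the hindbrain.

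All 10 member genes were found in the RefSeq annotation of GRCm38.p6, which was used only for names and order. From the Hoxb13 end the order was Hoxb13, Hoxb9, Hoxb8, Hoxb7, Hoxb6, Hoxb5, Hoxb3, Hoxb4, Hoxb2 and Hoxb1, where the annotated Hoxb3 gene begins before Hoxb4 and ends after it. Mir196a-1 lay between Hoxb13 and Hoxb9, and Mir10a between Hoxb5 and Hoxb4. Ttll6 was the nearest protein-coding neighbour before Hoxb13 and Skap1 the nearest after Hoxb1. Peaks are placed below by their mm9 position and by their distance from the Hoxb13 end of the window, and none is assigned to a single gene, because coordinates were not carried from GRCm38 to mm9.

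RefSeq promoters (250 bases before to 50 after the start of transcription, GRCm38.p6) were at hand for 3 of the 10 members. They are shown because CpGs in promoters are known to recruit the complexes that place H3K4me3 and those of Polycomb, with each CpG in capitals. They lie on the plus strand at chr11:96281655-96281954 (Hoxb8), chr11:96318017-96318316 (Hoxb4) and chr11:96365508-96365807 (Hoxb1) of GRCm38.p6, positions that cannot be set against the mm9 positions of the peaks.
Hoxb8: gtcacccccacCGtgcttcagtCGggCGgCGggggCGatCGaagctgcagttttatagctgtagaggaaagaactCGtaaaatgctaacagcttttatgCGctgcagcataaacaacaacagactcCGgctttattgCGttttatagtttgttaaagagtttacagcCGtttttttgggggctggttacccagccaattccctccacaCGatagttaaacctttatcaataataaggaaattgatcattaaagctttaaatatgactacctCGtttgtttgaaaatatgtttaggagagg
Hoxb4: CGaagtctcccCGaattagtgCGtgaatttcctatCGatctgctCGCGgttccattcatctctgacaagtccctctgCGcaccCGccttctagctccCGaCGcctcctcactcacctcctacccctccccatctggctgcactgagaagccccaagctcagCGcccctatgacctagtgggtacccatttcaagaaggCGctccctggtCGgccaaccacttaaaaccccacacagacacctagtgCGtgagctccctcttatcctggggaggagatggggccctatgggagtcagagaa
Hoxb1: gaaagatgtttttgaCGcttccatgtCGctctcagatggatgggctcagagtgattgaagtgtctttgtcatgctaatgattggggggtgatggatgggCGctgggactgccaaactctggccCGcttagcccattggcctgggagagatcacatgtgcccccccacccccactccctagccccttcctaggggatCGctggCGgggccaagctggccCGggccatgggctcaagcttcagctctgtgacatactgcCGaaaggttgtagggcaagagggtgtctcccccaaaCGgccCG

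The Hoxb8 promoter held 13 CpGs, the Hoxb4 promoter 14 and the Hoxb1 promoter 10, against a median of 7 over the 32851 promoters of the table, 94.6% of which hold at least 1. Promoters with fewer CpGs made up 62.1% of the table for Hoxb8, 63.7% for Hoxb4 and 56.5% for Hoxb1. The ratio of observed to expected CpG was 0.97 for Hoxb8, 0.593 for Hoxb4 and 0.38 for Hoxb1. CG reads the same on both strands, so 1 search covers them. The microRNAs encoded within the cluster are shown as its other products, and their mature 5p strands are given with the seed (bases 2 to 8) in capitals.
mmu-miR-196a-5p: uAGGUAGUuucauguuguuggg
mmu-miR-10a-5p: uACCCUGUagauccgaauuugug
They do not share a seed. The mature miR-196a-5p is also encoded by Mir196a-2 on chromosome 15, so its sequence does not name the Hoxb copy alone.

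H3K27me3 of young replicate 1 and H3K36me3 of young replicate 4 did not resemble the rest of their mark over the whole genome. Only 10.3% of the length under H3K27me3 islands in young replicate 1 lay under an island of any other H3K27me3 list, against 70.6 to 86.2% for the other 5. For H3K36me3 that share was 45.4% in young replicate 4 and 76.5 to 94.6% in the other 5. Young replicate 1 had 1 island in the Hoxb window and young replicate 4 had no peak there. Both carry title number 16, a number in the sample titles that the labels do not explain. H3K36me3 of old replicate 4 carries it too and had no peak in the window, though 93.4% of its length lay under another H3K36me3 list. Young replicates 1 and 4 are kept in the tests as planned, and the differences in cover are given with and without them. The H3K4me3 lists held 16258 to 19923 peaks over 26.9 to 32.5 Mb, the H3K27me3 lists 17752 to 47197 islands over 123 to 178.9 Mb, and the H3K36me3 lists 6399 to 84437 peaks over 5.9 to 138 Mb. Read depth is unknown, so no counting error can be given, and a list's covered length depends on depth and enrichment as well as on the mark.

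**Figure D1:**
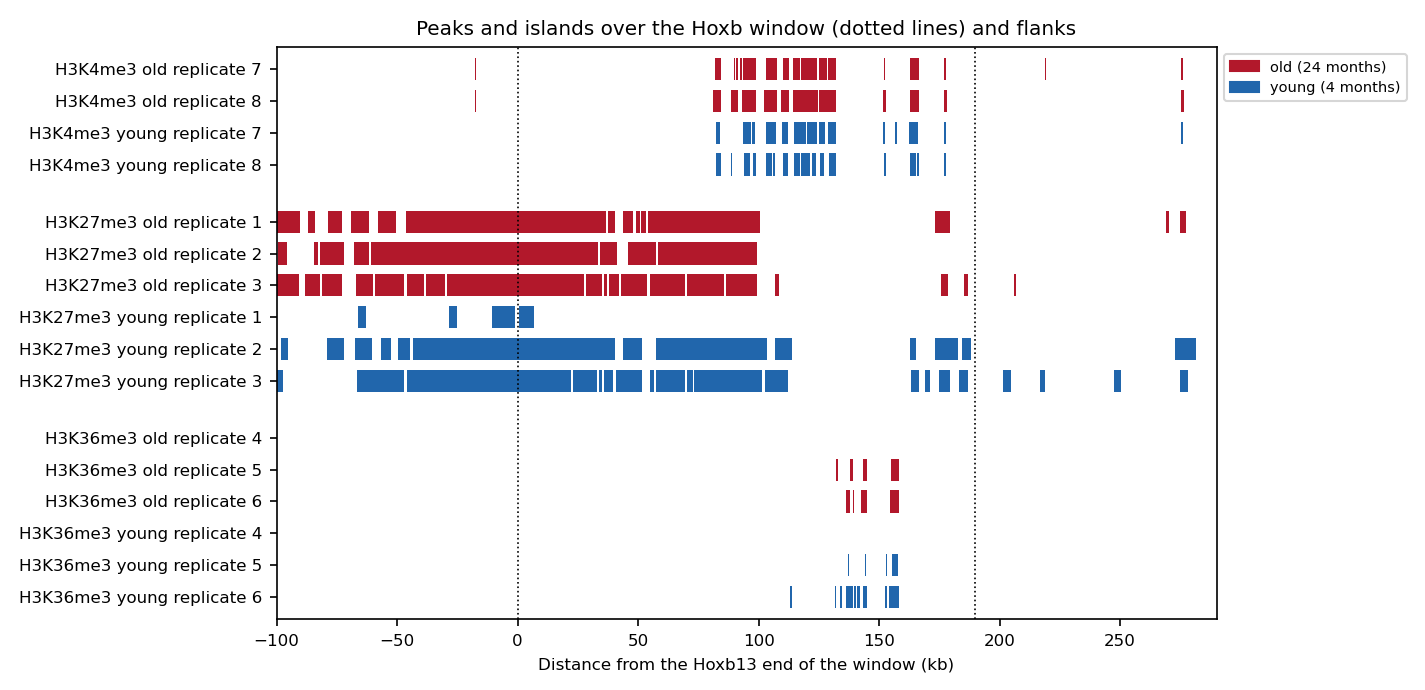
Peaks and islands of every library along the Hoxb window and its flanks, by distance in kb from the Hoxb13 end. Bars are the deposited intervals, red for old and blue for young, and dotted lines mark the window's borders. H3K27me3 fills the Hoxb13 side in 5 of 6 libraries, H3K4me3 of the window begins at 81.2 to 82.2 kb, and H3K36me3 lies between 113 and 158 kb.

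The window fell into 3 stretches by mark. Its Hoxb13 side lay under H3K27me3 in every library but young replicate 1, its middle carried a dense run of H3K4me3, and H3K36me3 was confined to 113 to 158 kb from the Hoxb13 end in the 4 libraries that had any. H3K27me3 covered 52.4, 49.05 and 51.9% of the window in old replicates 1, 2 and 3, against 3.37, 61.7 and 60.5% in young replicates 1, 2 and 3. H3K4me3 covered 20.04 and 23.3% in old replicates 7 and 8, against 17.8 and 14.9% in young replicates 7 and 8. H3K36me3 covered 0, 3.49 and 4.36% in old replicates 4, 5 and 6, against 0, 1.97 and 7.03% in young replicates 4, 5 and 6. The old and young libraries did not overlap for H3K4me3, and for H3K27me3 they did not overlap once young replicate 1 was set aside.

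Set against the whole of chromosome 11, the window was rich in H3K4me3 and H3K27me3 and poor in H3K36me3. H3K4me3 covered 1.85 to 2.23% of the chromosome and was higher in the window in 4 of 4 libraries, by a mean of 17 percentage points (exact two-sided sign-flip test over libraries, p = 0.125, the smallest that 4 libraries allow). H3K27me3 was higher in the window in 5 of 6 libraries by a mean of 37.4 points (exact p = 0.0625), and in 5 of 5 by 44.9 points without young replicate 1 (exact p = 0.0625, the smallest possible there). H3K36me3 was lower in the window in 6 of 6 libraries, by a mean difference of -1.79 points (exact p = 0.0312, the smallest that 6 libraries allow), and in 5 of 5 by -2.11 points without young replicate 4 (exact p = 0.0625). This comparison was added after the data were seen.

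**Figure D2:**
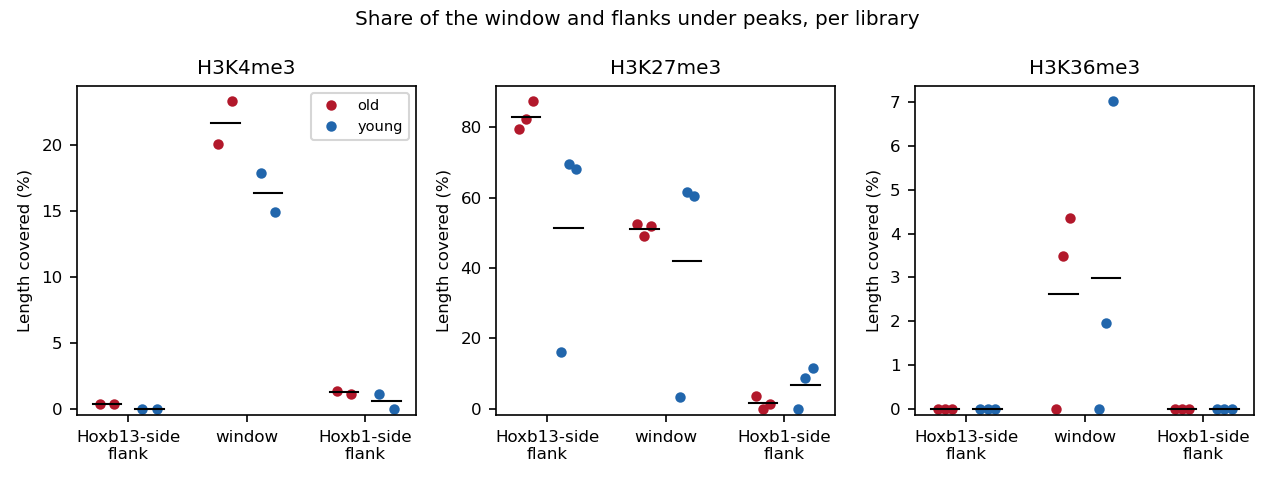
Percent of the window and of each 100 kb flank under peaks, 1 point per library, with old left of young and a black line at the mean of each group. H3K27me3 of young replicate 1 is the lowest point of its group, with 3.37% of the window.

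H3K27me3 made a block at the Hoxb13 side that reached across the window's border into the flank. Its longest island was 83.0 kb in old replicate 1 (chr11:96003801-96086800), 94.4 kb in old replicate 2 (chr11:95989001-96083400) and 56.8 kb in old replicate 3 (chr11:96020801-96077600). In the young libraries it was 6.4 kb in replicate 1 (chr11:96050601-96057000), 84.0 kb in replicate 2 (chr11:96006601-96090600) and 68.0 kb in replicate 3 (chr11:96004201-96072200). By length these islands ranked 4, 12 and 24 in the lists of old replicates 1, 2 and 3, and 6 in each of the lists of young replicates 2 and 3, but 3595 in that of young replicate 1. The mean length was 78.1 ± 19.3 kb in old (SD, n = 3) and 52.8 ± 41.0 kb in young libraries (SD, n = 3; exact permutation p = 0.6). Without young replicate 1 the young mean was 76.0 ± 11.3 kb (SD, n = 2) and the exact permutation p was 1.0, with the ages overlapping. Joined across gaps of up to 1000 bp, the longest island was 86.6, 109.2 and 145.0 kb in old replicates 1, 2 and 3, against 6.4, 84.0 and 85.4 kb in young replicates 1, 2 and 3. The ages then did not overlap, with a difference of 55.0 kb (exact permutation p = 0.1, the smallest possible), or 28.9 kb without young replicate 1 (exact permutation p = 0.2). Without joining, the difference was 10.4 kb within title number 18 and -11.2 kb within title number 20.

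In the stretch from 0 to 40 kb, toward Hoxb13, the mark covered most of each bin in every library but young replicate 1, which had 6400 bp in the bin at 0 to 10 kb and none beyond. In each of the first pair of 10 kb bins it was 10000 bp in all 3 old libraries and in young replicates 2 and 3. In the bin at 20 to 30 kb it was 10000, 10000 and 9200 bp in old replicates 1, 2 and 3, against 0, 10000 and 9000 bp in young replicates 1, 2 and 3. In the bin at 30 to 40 kb it was 9200, 9200 and 8400 bp in old replicates 1, 2 and 3, against 0, 10000 and 7800 bp in young replicates 1, 2 and 3. The bin at 40 to 50 kb held 5600, 5400 and 9200 bp in old replicates 1, 2 and 3, against 0, 6800 and 9200 bp in young replicates 1, 2 and 3, so the ages overlapped. The bin at 50 to 60 kb held 8400, 9200 and 9000 bp in old replicates 1, 2 and 3, against 0, 4000 and 5800 bp in young replicates 1, 2 and 3, and was the only bin of the window in which every old library lay above every young one.

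The block reached less far toward Hoxb1 in old libraries than in young replicates 2 and 3. Followed from the Hoxb13 end across gaps of at most 10 kb, it ended at 100.4, 99.4 and 108.4 kb in old replicates 1, 2 and 3, against 7.0, 114.0 and 112.2 kb in young replicates 1, 2 and 3. On mm9 these ends are positions 96150400, 96149400 and 96158400 for the old libraries and 96164000 and 96162200 for young replicates 2 and 3. Each old library thus ended before both young replicates 2 and 3, while young replicate 1 ended earliest of all. The reach of old replicate 3 came from 1 island of 1400 bp at chr11:96157001-96158400, and with gaps of at most 7 kb its block ended at 99.2 kb. In young replicates 2 and 3 the last part of the reach came from 1 island each past a shorter gap. These islands were of 7200 bp in replicate 2 (chr11:96156801-96164000) and of 9600 bp in replicate 3 (chr11:96152601-96162200). The gap ran from 103.4 to 106.8 kb in young replicate 2 and from 101.6 to 102.6 kb in young replicate 3. In old replicate 3 it ran from 99.2 to 107.0 kb.

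The mean end without young replicate 1 was 102.7 ± 4.93 kb in old (SD, n = 3) and 113.1 ± 1.27 kb in young libraries (SD, n = 2), a difference of -10.4 kb (exact permutation p = 0.2). With gaps of at most 7 kb it was -13.4 kb, and the exact p was 0.1, below which a comparison of 3 with 2 cannot go. With young replicate 1 the difference was 25 kb with an exact p of 1.0, so its sign rests on that library. Within title number 18 the difference was -14.6 kb, and within title number 20 it was -3.8 kb. This measure was chosen after the data were seen.

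The same border showed in the bins. The bin at 100 to 110 kb held 400, 0 and 1400 bp of H3K27me3 in old replicates 1, 2 and 3, against 0, 6600 and 9000 bp in young replicates 1, 2 and 3. The bin at 110 to 120 kb held 0 bp in all 3 old libraries, against 0, 4000 and 2200 bp in young replicates 1, 2 and 3. From 120 to 160 kb no library of either age had an H3K27me3 island.

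**Figure D3:**
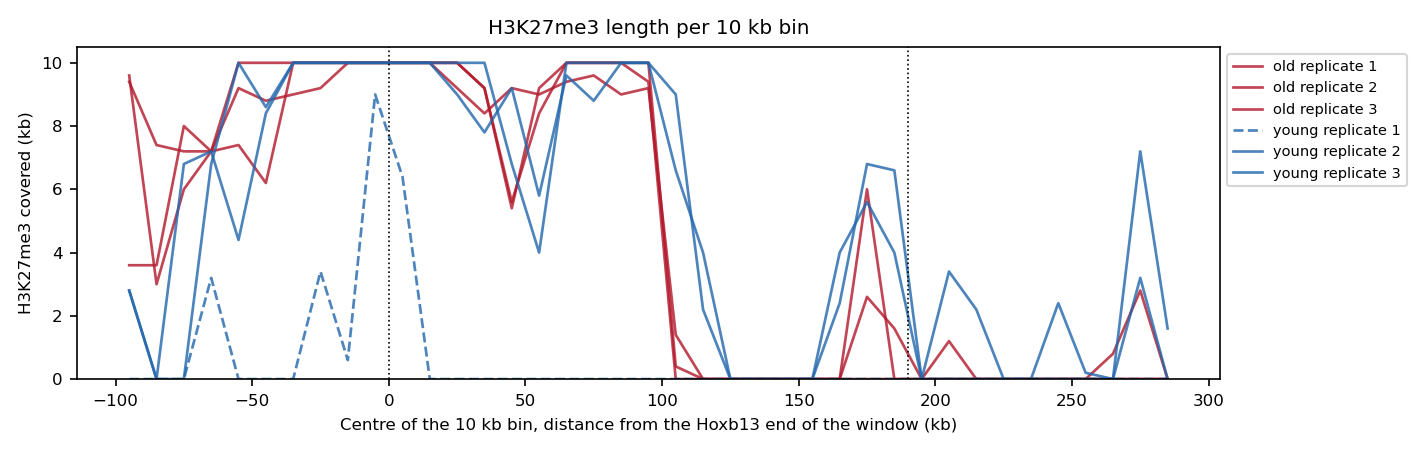
H3K27me3 length in kb per 10 kb bin along the window and flanks, 1 line per library, with young replicate 1 dashed and the window's borders dotted. The old lines drop to 1.4 kb or less in the bin at 100 to 110 kb, where young replicates 2 and 3 hold more.

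Toward the Hoxb1 end, beyond this free stretch, H3K27me3 came back in short islands that were sparser in old libraries than in young replicates 2 and 3. Young replicate 1 had none there, and with it the ages overlapped in every one of these regions. The merged region chr11:96212801-96216600 (162.8 to 166.6 kb) was covered over 0 bp in all 3 old libraries, against 0, 2400 and 3200 bp in young replicates 1, 2 and 3. The region chr11:96223201-96232800 was covered over 6000, 0 and 2600 bp in old replicates 1, 2 and 3, against 0, 9600 and 4600 bp in young replicates 1, 2 and 3, so the ages overlapped there. The region chr11:96233001-96238000 was covered over 0, 0 and 1600 bp in old replicates 1, 2 and 3, against 0, 3800 and 4000 bp in young replicates 1, 2 and 3, and chr11:96219201-96221000 over 1800 bp in young replicate 3 only. The 5 merged H3K27me3 regions of the window included 1 held by all 6 libraries, that of the block (chr11:95981001-96164000). Of its 183000 bp young replicate 1 covered 22600, against 154400 to 166800 in the other libraries. Young replicate 1 had cover in the block's region alone, so no other region could be held by all young libraries. None of the regions had cover in all libraries of either age while lacking it in the other age. A single such region, chr11:96212801-96216600, was found without young replicate 1. How often this occurs over all H3K27me3 regions of the genome is not given here, so the region is not read as particular to the cluster.

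Over all 190 kb, the mean cover by H3K27me3 was 51.1 ± 1.81% in old (SD, n = 3) and 41.9 ± 33.3% in young libraries (SD, n = 3), a difference of 9.26 percentage points with an exact permutation p of 1.0. Without young replicate 1 the young mean was 61.1 ± 0.819% (SD, n = 2) and the difference was -9.98 points (exact permutation p = 0.1, the smallest possible), and the adjusted p was 0.225 over the 9 results tested without the libraries that stood apart. As a share of the list's covered length the window held 635, 582 and 578 bp per Mb in old replicates 1, 2 and 3, against 953 and 643 bp per Mb in young replicates 2 and 3. Within title number 18 the difference in percent covered was -12.6 points and within title number 20 it was -8.63 points.

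On the side of Hoxb13, H3K27me3 covered 79.4, 82.4 and 87.4% in old replicates 1, 2 and 3, against 16.2, 69.6 and 68.2% in young replicates 1, 2 and 3. All old libraries lay above all young ones, by 31.7 points (exact permutation p = 0.1, the smallest possible, adjusted p = 0.96 over 12 results) and by 14.2 points without young replicate 1 (exact permutation p = 0.1, adjusted p = 0.225 over 9). As a share of the list's length the same flank overlapped, with 506.5, 515 and 512 bp per Mb in old replicates 1, 2 and 3, against 566 and 381 bp per Mb in young replicates 2 and 3. On the side of Hoxb1 the mark covered 3.6, 0 and 1.2% in old replicates 1, 2 and 3, against 0, 8.8 and 11.4% in young replicates 1, 2 and 3, a difference of -5.13 points with overlap (exact permutation p = 0.4, adjusted p = 0.96). It was -8.5 points without young replicate 1, and the ages did not overlap (exact permutation p = 0.1, adjusted p = 0.225).

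The far end of the Hoxb13-side flank held the bins with the ages apart. At -90 to -80 kb the mark covered 3000, 3600 and 7400 bp in old replicates 1, 2 and 3, against 0 bp in all 3 young libraries. At -100 to -90 kb it covered 9600, 3600 and 9400 bp in old replicates 1, 2 and 3, against 0, 2800 and 2800 bp in young replicates 1, 2 and 3. Nearer to Hoxb13, from -20 kb to the border, it covered each bin in full in every library but young replicate 1. On the side of Hoxb1, the bin at 270 to 280 kb held 2800, 0 and 0 bp in old replicates 1, 2 and 3, against 0, 7200 and 3200 bp in young replicates 1, 2 and 3.

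Fitted over 10 kb bins of the whole genome with limma, a linear model with moderated variances, on log2(bp covered + 200), no H3K27me3 bin passed an adjusted p of 0.05, in the window or outside. Of 56946 bins tested, 0 (0.0%) were called, with 1932 at an unadjusted p under 0.05 and a smallest adjusted p of 0.685. Without young replicate 1 the counts were 0 (0.0%) of 47497, with 4515 at an unadjusted p under 0.05 and a smallest adjusted p of 0.302. Fitted over merged regions, limma likewise called 0.0% of them.

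In these fits the log2 change of all bins had a median of 0.58 with young replicate 1 and of 0.03 without it, and the values that follow are without it. The bin at 50 to 60 kb had a log2 change of 0.85 (limma, adjusted p = 0.302), that at 100 to 110 kb -3.78 (adjusted p = 0.47) and that at 110 to 120 kb -3.99 (adjusted p = 0.302). The bin at 160 to 170 kb had -4.05 (adjusted p = 0.302) and that at 180 to 190 kb -3.68 (adjusted p = 0.553). Bins with no cover in one age depend on the added 200 bp, so these values are not bounds.

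Of the 19 bins of the window, 15 were tested. Without young replicate 1 all old libraries lay below the young ones in 4 of them, where 9.62% of all bins did, and above them in 1, where 9.23% did. With young replicate 1 the counts were 0 below (0.862% of all bins) and 1 above (7.4%). Of the bins of the window, young replicate 1 had cover only in that at 0 to 10 kb. In no other bin could the old libraries lie below all young ones, so the 0 is not read as a result. Neighbouring bins share islands and libraries and are not independent.

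H3K4me3 lay in 14 merged regions between 81.2 and 178 kb, of which 9 were held by all 4 libraries. The longest peak of the window was 6411 bp in old replicate 7 and 7240 bp in old replicate 8, against 4167 bp in young replicate 7 and 2625 bp in young replicate 8. These peaks ranked 38 and 33 by length in the lists of old replicates 7 and 8, against 363 and 1804 in those of young replicates 7 and 8. A score of 3100 is the value at which most high scores of these lists stop. Peaks of the window with that score or more numbered 10 of 17 and 8 of 15 in old replicates 7 and 8. In young replicates 7 and 8 they numbered 6 of 15 and 6 of 18. Over the whole lists, peaks below that score made up 48.8 and 52.3% in old replicates 7 and 8, against 41.1 and 40.3% in young replicates 7 and 8.

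The longest run of the mark began just past the end of the H3K27me3 block of young replicates 2 and 3. The merged region chr11:96164253-96174845 (114.3 to 124.8 kb) was covered over 9344 and 10198 bp in old replicates 7 and 8, against 9475 and 7617 bp in young replicates 7 and 8, so the ages overlapped. It was split into 2 peaks in each old library and into 4 in each young library. Next to it, chr11:96174979-96182218 (125.0 to 132.2 kb) was covered over 6500 and 7240 bp in old replicates 7 and 8, against 5566 and 4219 bp in young replicates 7 and 8, without overlap. Limma gave it a log2 change of 0.48 ± 0.16 (SE, adjusted p = 0.5).

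A further 3 regions under or beside the H3K27me3 border were longer in both old libraries than in both young ones. The region chr11:96142448-96149130 (92.4 to 99.1 kb) was covered over 6206 and 5962 bp in old replicates 7 and 8, against 4657 and 3541 bp in young replicates 7 and 8 (log2 change 0.56 ± 0.15 SE, limma adjusted p = 0.348). The region chr11:96152059-96157547 (102.1 to 107.5 kb) was covered over 4445 and 5433 bp in old replicates 7 and 8, against 4167 and 3126 bp in young replicates 7 and 8. The region chr11:96159804-96162800 (109.8 to 112.8 kb) was covered over 2830 and 2883 bp in old replicates 7 and 8, against 2514 and 2318 bp in young replicates 7 and 8. Limma gave the last of these a log2 change of 0.23 and an adjusted p of 0.742, and the middle one 0.42 and 0.762.

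Within the window, the H3K4me3 region nearest to the Hoxb13 end was chr11:96131213-96134607. It was covered over 2727 and 3321 bp in old replicates 7 and 8, against 1721 and 2038 bp in young replicates 7 and 8. The ages did not overlap there (log2 change 0.63 ± 0.14 SE, limma adjusted p = 0.348). Both regions of the window held by both old and no young libraries were short and lay just beyond that region. They were chr11:96139387-96140634, with 389 and 1248 bp in old replicates 7 and 8, and chr11:96140656-96141405, with 641 and 750 bp in old replicates 7 and 8, each with 0 bp in both young libraries. No region was held by both young and no old library. The share of such regions over the whole genome is not given here, so these counts are not read as particular to the cluster. The old lists also held more peaks in all, 18675 and 19923 in replicates 7 and 8, against 16314 and 16258 in young replicates 7 and 8. The short region chr11:96138460-96139204 had 0 and 745 bp in old replicates 7 and 8, against 0 and 664 bp in young replicates 7 and 8, and chr11:96159166-96159598 had 433 bp in old replicate 8 only.

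Toward Hoxb1 the ages were closer. The region chr11:96212594-96216548 (162.6 to 166.5 kb) was covered over 3556 and 3749 bp in old replicates 7 and 8, against 3500 and 2857 bp in young replicates 7 and 8, a log2 change of 0.20 with a limma adjusted p of 0.979. The region chr11:96226882-96228095 was covered over 695 and 1131 bp in old replicates 7 and 8, against 804 and 1034 bp in young replicates 7 and 8, and chr11:96201709-96202858 over 749 and 1128 bp in old replicates 7 and 8, against 849 and 811 bp in young replicates 7 and 8. In both of these the ages overlapped, and chr11:96206632-96207267 had 636 bp in young replicate 7 only.

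**Figure D4:**
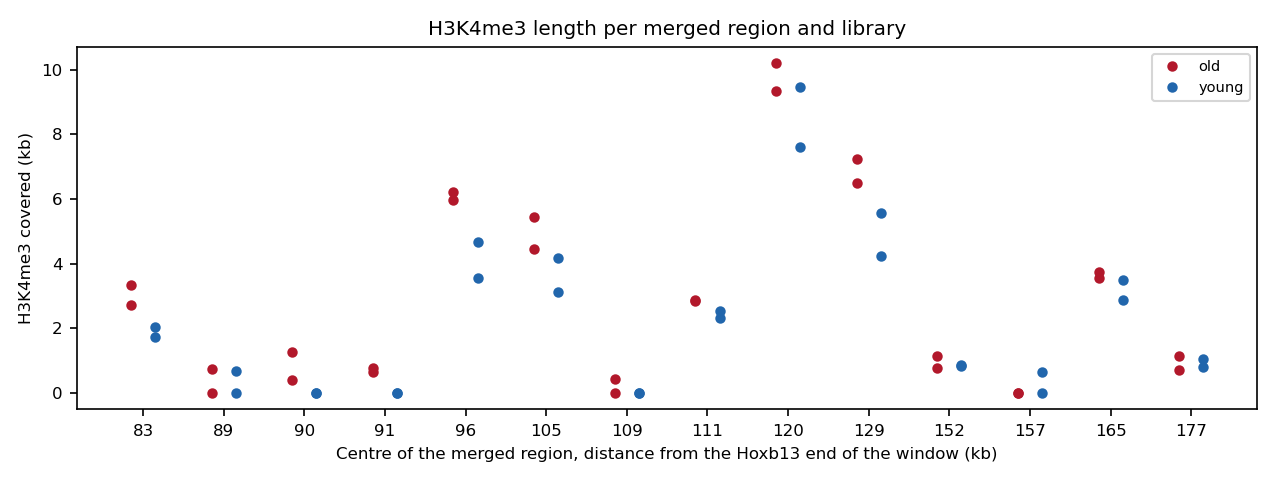
H3K4me3 length in kb per merged region and library, by the region's centre in kb from the Hoxb13 end, with the 2 old libraries left of the 2 young ones. In 8 of the 14 regions both old points lie above both young points, and in none do both lie below.

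Over the whole window, H3K4me3 covered 21.7 ± 2.28% in old (SD, n = 2) and 16.4 ± 2.11% in young libraries (SD, n = 2), a difference of 5.31 percentage points. The exact permutation p was 0.333, below which a comparison of 2 with 2 cannot go, with an adjusted p of 0.96 over 12 results. As a share of the list's covered length the window held 1402 and 1361 bp per Mb in old replicates 7 and 8, against 1146 and 1048 bp per Mb in young replicates 7 and 8, without overlap. Within title number 18 the difference in percent covered was 2.21 points. In 8 of the 12 merged regions tested here the old lists had the greater length without overlap, which held for 16.5% of all 17307 tested regions. In 0 they had the smaller length, which held for 14.6%. Of the 8, 2 had no cover in the young libraries and passed the filter of 2 libraries only through the old ones. Neighbouring regions share libraries and are not independent, and the same holds for the bins. The counts in the window were not tested against the shares over all regions or bins. Of the 9 bins of the window that held the mark, 6 had both old libraries above both young ones, where 16.9% of all 18953 tested bins did, and 0 had them below, where 14.4% did. The 6 were those from 80 to 130 kb and that at 160 to 170 kb. The bin at 120 to 130 kb held 8523 and 9867 bp in old replicates 7 and 8, against 7545 and 4699 bp in young replicates 7 and 8, while that at 110 to 120 kb held 8014 and 8065 bp in old replicates 7 and 8, against 7597 and 7450 bp in young replicates 7 and 8.

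No single region or bin passed the test. Limma called 0 (0.0%) of 18953 H3K4me3 bins, with 1239 at an unadjusted p under 0.05, and 0.0% of merged regions. In the window 1 bin, at 90 to 100 kb, had an unadjusted p under 0.05, with a log2 change of 0.79 and an adjusted p of 0.209. It held 7030 and 7346 bp in old replicates 7 and 8, against 4657 and 3541 bp in young replicates 7 and 8. When only peaks with a score of at least their list's median were kept, limma called 291 of 11810 bins (2.46%) and 2 of the window, at 80 to 90 and 90 to 100 kb, both with an adjusted p of 0.0212. This cut was not equal between the ages, since the list median was 3100 in old replicate 7 and in both young libraries but 2640 in old replicate 8. The highest score in these bins was 3100 in both old libraries, against 2509 and 2420 in young replicates 7 and 8, so the cut set both young libraries to 0 there. These calls are therefore not read as a difference in cover.

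In the flanks H3K4me3 was sparse. On the side of Hoxb13 each old library had 1 peak, of 368 and 333 bp in replicates 7 and 8, and neither young library had any. On the side of Hoxb1 the mark covered 1.36 and 1.12% in old replicates 7 and 8, against 1.09 and 0% in young replicates 7 and 8.

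The marks met in the stretch where the border lay. The H3K4me3 length held by all 4 libraries came to 25556 bp in 19 pieces, and the share of it under H3K27me3 was 22.8, 20.1 and 22.8% in old replicates 1, 2 and 3, against 0, 41.2 and 51.75% in young replicates 1, 2 and 3. The old libraries lay below young replicates 2 and 3 without overlap. Without young replicate 1 the means were 22.0 ± 1.57% in old (SD, n = 3) and 46.5 ± 7.46% in young libraries (SD, n = 2), a difference of -24.5 points (exact permutation p = 0.1, the smallest possible, adjusted p = 0.225 over 9 results). With young replicate 1 the difference was -9.04 points with an exact permutation p of 0.7.

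The pieces fell into groups by which of the 5 libraries other than young replicate 1 had an island on them. Toward Hoxb13, 4 pieces between 82.2 and 98.6 kb (5145 bp, 20.1% of the length) were covered in full by all 5. A further 4 pieces, 29.8% of the length, had an island in young replicates 2 and 3 and in no old library, with 4688 and 7126 of their 7610 bp covered in these young libraries. Of these, 3 lay between 103 and 112 kb, inside the border stretch, and 1 lay at chr11:96213033-96215198 toward Hoxb1. The largest group, 9 pieces with 46.4% of the length, had no island in any library, and 8 of these lay between 114 and 132 kb. The piece at chr11:96226982-96227676, nearest to Hoxb1, was covered in full in old replicates 1 and 3 and in young replicates 2 and 3, and not in old replicate 2.

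**Figure D5:**
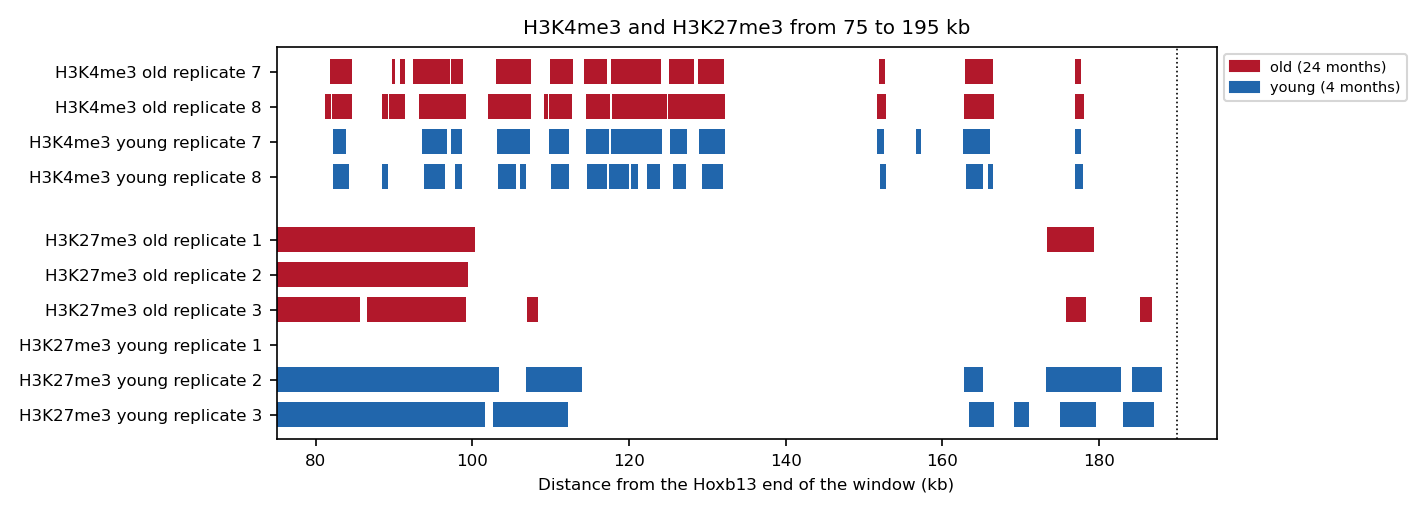
H3K4me3 peaks and H3K27me3 islands along the part of the window from the H3K27me3 border to Hoxb1, by distance in kb from the Hoxb13 end, red for old and blue for young. The islands next to the border end at 100.4, 99.4 and 99.2 kb in old replicates 1, 2 and 3, against 103.4 and 101.6 kb in young replicates 2 and 3. Past these lie shorter islands that end at 108.4 kb in old replicate 3, against 114.0 and 112.2 kb in young replicates 2 and 3, and the H3K4me3 run from 114 to 132 kb lies outside them all.

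H3K36me3, the mark of transcribed bodies, lay mostly between the H3K4me3 run and the Hoxb1 side. The region chr11:96204296-96208358 (154.3 to 158.4 kb) was covered over 0, 3090 and 3770 bp in old replicates 4, 5 and 6, against 0, 2353 and 3911 bp in young replicates 4, 5 and 6. Its peaks had the highest scores of the mark in the window, 391 and 1615 in old replicates 5 and 6, against 815 and 2091 in young replicates 5 and 6. The region chr11:96186235-96190439 was covered over 0, 1057 and 2364 bp in old replicates 4, 5 and 6, against 0, 716 and 3620 bp in young replicates 4, 5 and 6, and chr11:96193215-96195138 over 0, 1700 and 1551 bp in old replicates 4, 5 and 6, against 0, 347 and 1780 bp in young replicates 4, 5 and 6. In all of these the ages overlapped, as they had to with no peak in old and young replicates 4.

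The other 6 H3K36me3 regions of the window were held by 1 or 2 libraries. The region chr11:96202482-96203471 was covered over 0 bp in all old libraries, against 0, 320 and 990 bp in young replicates 4, 5 and 6. Old replicate 5 alone among the old libraries had cover in chr11:96181518-96182754, 793 bp, and young replicate 6 had 631 bp there. Old replicate 6 alone had chr11:96192553-96193154, with 602 bp. Young replicate 6 alone had chr11:96163176-96163793 with 618 bp, chr11:96183725-96184448 with 724 bp and chr11:96190835-96191909 with 1075 bp. No region could be held by all libraries of an age, since replicate 4 of each age had no peak in the window. Mean cover of the window was 2.62 ± 2.31% in old (SD, n = 3) and 3.00 ± 3.62% in young libraries (SD, n = 3), a difference of -0.38 points with an exact permutation p of 1.0, and -1.88 points with an exact permutation p of 0.6 without young replicate 4. Without young replicate 6 the difference turned to 1.64 points and without old replicate 4 to 0.93 points. Within title number 18 it was 2.39 points, and within title number 16, where neither library had a peak in the window, it was 0. As a share of the list's covered length the window held 0, 66.4 and 82.5 bp per Mb in old replicates 4, 5 and 6, against 0, 89.9 and 96.9 bp per Mb in young replicates 4, 5 and 6. Without young replicate 4 the ages did not overlap on that scale, with a difference of -43.8 bp per Mb (exact permutation p = 0.2). Old replicate 4, with no peak in the window, stayed in the old mean of both differences without young replicate 4. With old replicate 4 left out as well, the difference in percent covered was -0.57 points.

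Limma called 0 (0.0%) of 35864 H3K36me3 bins and 0.0% of merged regions, with 147 bins at an unadjusted p under 0.05. Without young replicate 4 it called 0 (0.0%) of 35681 bins, with 607 at an unadjusted p under 0.05. None of the 4 bins of the window with the mark, 3 of them tested, had the ages apart. This was fixed beforehand, since old and young replicates 4 had no peak in the window. Over all tested bins the old libraries lay above the young ones in 3.49% and below in 0.0558%. The bins of the window cannot be set against these shares. Neither flank held an H3K36me3 peak in any library. H3K36me3 and H3K27me3 kept apart along the cluster: of 3736 to 13349 bp of H3K36me3 in the 4 libraries that had it, 618 bp of young replicate 6 lay under an H3K27me3 island, in young replicate 2, and 0 bp of the other 3 did.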

How the data were processed

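ChIP-seq peak lists of 16 libraries were used, 1 list per library. The submitters' processing notes name CASAVA 1.4, MACS, SICER and the mm9 build. Which MACS and SICER releases, cut-offs or input controls were used, and how deeply each library was sequenced, is not stated there. The H3K27me3 lists have SICER's layout, with bounds on a 200 bp grid whose ends were read as inclusive, and the others have that of MACS. Each peak carries a score deposited by the authors with no stated unit. Where scores of several lists are given side by side, they are not on a scale known to be common. Covered length was computed from the bounds after merging overlapping peaks of a list. Merged regions join peaks of all libraries of a mark that overlap or abut, and a library holds a region with at least 1 bp of cover. All merged regions that touch the window are named, and bins are named where the ages did not overlap. Values per library were compared with exact two-sided permutation tests on the absolute difference in means, old minus young. Bins of 10 kb covered in at least 2 libraries, and merged regions, were fitted per mark over the whole genome with limma 3.58.1 in R 4.3.3 (trend, Benjamini-Hochberg adjustment, threshold 0.05). The step was also run on simulated data with the same normal spread in all bins and no libraries without cover. That run does not show the power of the fit in these lists. Other steps used Python 3.11.15, numpy 2.4.6, pandas 2.3.3 and matplotlib 3.10.9. Replicate numbers were not used to pair the samples in the main tests. The window, members and tests were chosen with earlier results of these data known. Alternatives changed the threshold, scaling, overlap, gaps, bin size, offset, filter, blocks and libraries. Genes were not placed on mm9, so no other pathway genes are reported.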

Additional observations from a re-analysis of the deposited data

How the results depend on the processing

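Leaving out each library in turn, the old minus young difference in window cover ranged from -9.98 to 19.2 points for H3K27me3 and from -1.88 to 1.64 points for H3K36me3, that in H3K4me3 length under H3K27me3 from -24.5 to 1.35 points, and that in the end of the H3K27me3 block from -10.4 to 43.1 kb. The negative values for the H3K27me3 window and the block in these ranges came without young replicate 1, and the positive one for H3K4me3 under H3K27me3 without young replicate 3. The positive H3K36me3 values came without young replicate 6 or old replicate 4. With the libraries that stood apart removed throughout, the ranges were -6.1 to 12.7 kb for the longest island, which was 28.9 kb with islands joined across 1000 bp, and -4.41 to 0.65 points for H3K36me3 cover. Within title numbers 18 and 20 the differences were -12.6 and -8.63 points for H3K27me3 cover and -14.6 and -3.8 kb for the end of the block. They were 2.39 points for H3K36me3 cover within 18, 0 for H3K36me3 cover within 16 and 2.21 points for H3K4me3 cover within 18. For the longest island they were 10.4 kb within 18 and -11.2 kb within 20. With peaks at or above their list's median score, limma called 291 H3K4me3 bins and 2 in the window under a cut that was lower in old replicate 8, and with 1 library left out it called 0 to 5 H3K4me3 bins, the 5 without young replicate 7 and outside the window. For the other marks it called 0 in every alternative run. H3K4me3 regions held by both old and no young libraries numbered 1 when 50% of the region had to be covered and 2 to 4 with a library left out, and regions held by every young and no old library 0 to 1 for each mark. With the replicate block limma called 0 bins of each mark. The deviations of same-numbered old and young libraries had correlations between -0.0429 and 0.174. Those of differently numbered libraries lay between -0.181 and 0.0886. These weak values do not settle whether the numbers pair the samples. Title number as a block could not be fitted for H3K4me3, as it leaves no residual degrees of freedom. Centring each library moved the median log2 change of all bins to 0.23 from 0.58 for H3K27me3 and to 0.16 from 1.07 for H3K36me3, with all libraries in. In the tested bins of the window it moved the median to 1.47 from 1.82 for H3K27me3 and to -0.81 from 0.09 for H3K36me3. The window's H3K36me3 bins with a positive change went from 2 to 0 of 3, and its H3K27me3 bins from 10 to 9 of 15. With few libraries per age, no exact test between the ages could pass 0.05 in any setting, so these alternatives bear on direction and size alone.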
